A study of Macaca mulatta with 20 samples.

Results

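The interleukin 1 (IL-1) and interleukin 18 (IL-18) genes described here are the ligand IL1B, the receptor antagonist IL1RN, the receptors IL1R1, IL1R2 and IL1RAP, and IL18 with its receptor chains IL18R1 and IL18RAP. They were chosen by name, as the probes carrying one of these 8 gene names whose signal was well above background on at least 5 of the 20 arrays. This gave 13 of the 14 probes of these genes on the array, and at least 1 probe for each of the 8 genes, of 15929 gene names and 19961 probes tested in all. The third IL18R1 probe, A_33_P3251876, was well above background on 4 arrays and was not tested.

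RNA came from the whole blood of male rhesus macaques of Chinese origin, with globin transcripts depleted. The animals were exposed to 10 Gy of X-rays over the thorax, which takes in lungs and heart. There were 5 arrays in each of 4 groups, numbered as replicates 1 to 5. The pre-irradiation samples were taken 3 days ahead of the exposure and the others on days 2, 5 and 30 after it, and arrays of 1 number were compared as a pair because the methods paired comparisons by animal. All animals belonged to an arm without the radiation mitigator of a larger study, and every post-irradiation group carries the same dose, so there is no sham-irradiated group at matched times. The methods give ages for the cohort and not for each array, state that RNA of 2 animals was pooled in 1 case without naming the array, and state that the anti-inflammatory drug ketoprofen and the opioid buprenorphine were given as needed. Each of 5 slides held 1 array of every group, and the position on the slide was the same for all arrays of a group, so position and group cannot be told apart. Markers of the cell types of whole blood were measured on all 20 arrays, among them CSF3R of neutrophils, CD14 of monocytes, CD3D of T cells, CD79A of B cells, GZMB of cytotoxic cells and PF4 of platelets. In whole blood, fewer cells of a type and less RNA per cell cannot be told apart.

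IL-1beta, the product of IL1B, is a cytokine of monocytes, macrophages and neutrophils that starts fever and acute inflammation. It signals when it binds the receptor IL1R1, which then recruits the accessory chain IL1RAP. IL1R2 binds the same ligand but lacks the signalling domain and acts as a decoy, while the IL1RN product occupies IL1R1 without starting a signal. IL-18 is released by the same inflammasome cleavage as IL-1beta, binds IL18R1 with its accessory chain IL18RAP, and is best known for driving interferon gamma production by NK and T cells.

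The probes are 60 bases long and were designed on human transcripts, so what reached each of them was macaque RNA on a human sequence. The probes that stand for IL1R1, IL1R2, IL18 and IL18R1 are shown as the brightest tested probes behind the values of these receptors and of the IL-18 ligand.
IL1R1, A_33_P3396389, chr2:102792046-102792105, plus strand: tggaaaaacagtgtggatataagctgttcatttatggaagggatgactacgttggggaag
IL1R2, A_24_P63019, chr2:102632505-102636150, plus strand: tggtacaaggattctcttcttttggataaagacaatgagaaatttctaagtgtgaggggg
IL18, A_23_P104798, chr11:112020811-112020870, minus strand: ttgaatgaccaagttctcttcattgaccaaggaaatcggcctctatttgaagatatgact
IL18R1, A_33_P3211666, chr2:102984468-102984527, plus strand: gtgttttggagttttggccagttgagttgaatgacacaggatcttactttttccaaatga
Positions are those the array files give on the human build hg19. The IL1R2 probe spans 3646 bases of the genome and therefore crosses an exon junction. On chromosome 2 the receptors IL1R2, IL1R1, IL18R1 and IL18RAP lie in 1 cluster, and IL1B (113587429 to 113587488, minus strand) and IL1RN (113891531 to 113891590) lie further along the same chromosome. The IL1RAP probe A_23_P170857 lies on chromosome 3 (190368968 to 190369027). In the macaque annotation (T2T-MMU8v2.0), which holds all 8 gene names, the order of the cluster is IL1R2, IL1R1, IL1RL2, IL1RL1, IL18R1 and IL18RAP.

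Levels are given as the log2 processed signal minus the 75th percentile of the array, so a level of 0 is the signal that 75% of the spots of that array do not exceed. Levels of different probes are not compared with each other. For genes with several probes the brightest tested probe stands for the gene. To be called, a probe needed both p under 0.005 in limma and, after Benjamini-Hochberg adjustment over all 19961 probes, an FDR under 10%.

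The IL-1 genes had higher means than pre-irradiation on all 3 days. IL18, with a signal close to background, had a lower mean at 2 days, which turned higher with normexp background correction. Its receptor chains differed little or in both directions before day 30. At 2 days IL1B, IL1R2 and IL1RAP were higher than pre-irradiation by 1.82-fold, 2.65-fold and 2.39-fold, each in 5 of 5 pairs and each at a p-value under 0.005 from limma before adjustment. At 5 days the same p-value was reached by IL1R1 (2.03-fold, higher in 4 of 4 measured pairs) and IL1R2 (2.05-fold, 5 of 5 pairs), and at 30 days by IL1R1 (1.99-fold) and IL1RAP (1.71-fold), both in 5 of 5 pairs. None of the 8 genes was called by limma with the FDR limit. The shares of all probes that were called were 0.0601% at 2 days, 0% at 5 and 30 days, 0.0501% between days 2 and 30, and 0% between day 5 and either of the other days. Without the FDR limit, 3 of the 8 genes passed at 2 days, all higher, beside 2.55% of all probes (1.9% higher). At 5 days 2 of 8 passed, all higher, beside 1.58% of all probes (1.26% higher), and at 30 days 2 of 8, all higher, beside 3.14% (1.13% higher). At an unadjusted p-value under 0.05 from limma, 5 genes were higher and 1 lower at 2 days, beside 15% of all probes (8.47% higher and 6.55% lower). At that p-value 3 genes were higher at 5 days, beside 11.2% of all probes (7.35% higher), and 4 were higher at 30 days, beside 17.5% (7.43% higher). A paired test run on each probe by itself also called 0 members. Without the pairing of arrays by replicate number, the genes that passed p under 0.005 numbered 1 at 2 days (IL1RAP), 0 at 5 days and 0 at 30 days, and without replicate 1 or without replicate 5 only IL1B passed at 2 days. With all 20 arrays in a single fit IL1R1, IL1R2 and IL1RAP were called at 2 days, beside 1.72% of all probes, and 0 genes passed p under 0.005 at 30 days. IL1B did not pass p under 0.005 at 2 days in that fit or with the slide as a block. With normexp background correction IL1R1 and IL1R2 passed it at 2 days, and IL1B and IL1RAP did not. Other processing settings lowered the log2 difference at 2 days to as little as 0.41 for IL1B (0.86 as reported), 0.76 for IL1RAP (1.26) and 0.84 for IL1RN (1.39).

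The median log2 difference over the 8 genes was 1.06 at 2 days, 0.37 at 5 days and 0.58 at 30 days, where the median of all 19961 probes was -0.04, 0.03 and -0.02. Higher means were found for 6 of 8 genes at 2 days, 6 at 5 days and 8 at 30 days, where 44.9%, 54.7% and 47.4% of all probes were higher. At 5 days IL18RAP counts as higher through its brighter probe, while its dimmer probe was lower in 5 of 5 pairs. The 3 days share the same 5 pre-irradiation arrays. For each gene on each day the range of the 5 post-irradiation levels overlapped that of the pre-irradiation levels, while the groups did not overlap for 1.62%, 0.641% and 2.04% of all probes. Probes higher in every pair made up 6.17%, 7.24% and 7.41% of all probes at the 3 days, and probes lower in every pair 8.19%, 5.86% and 10.5%. With 5 pairs an exact sign test of the differences cannot give a p-value below 0.0625, so p-values are those of the limma fit.

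**Figure D1:**
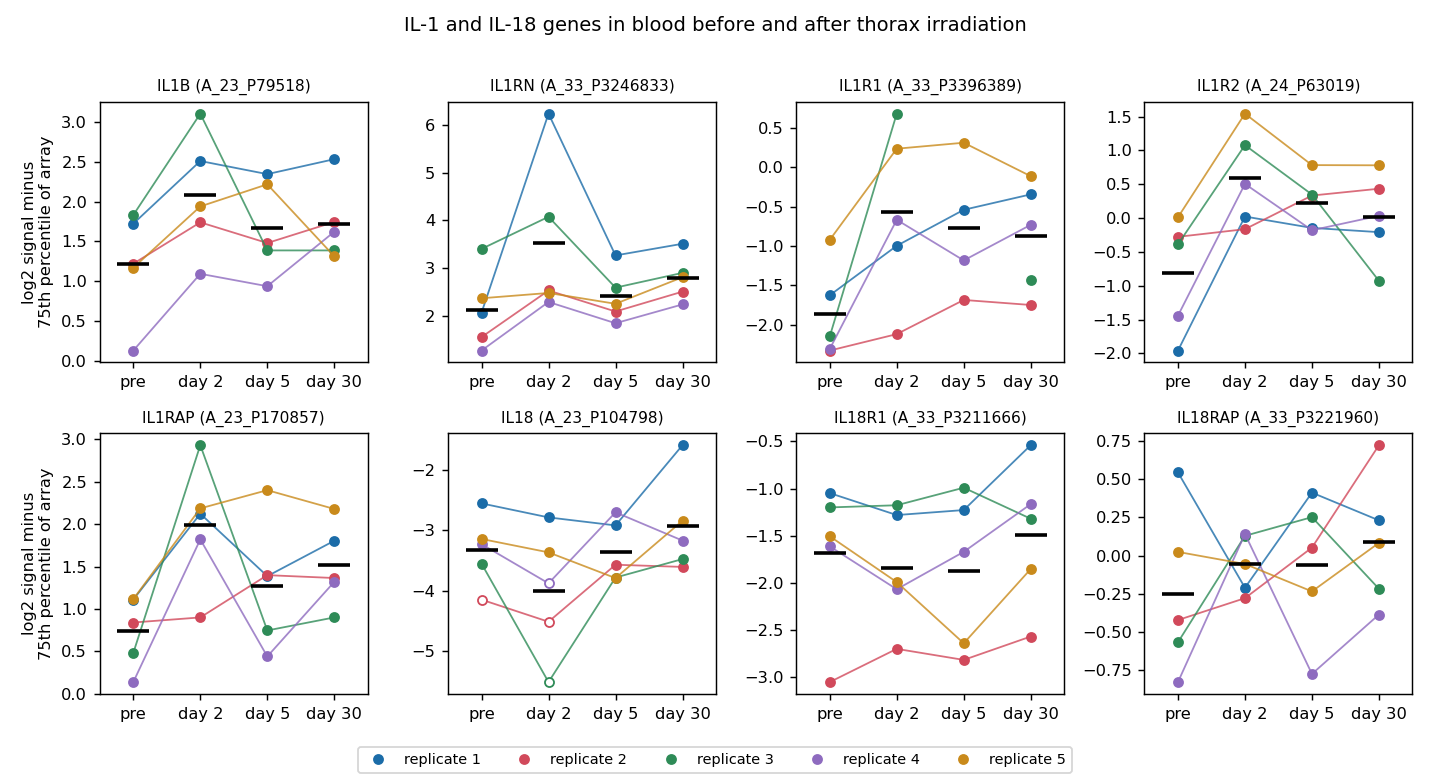
Level of each of the 8 genes on the 20 arrays, 1 panel per gene, with the log2 processed signal minus the 75th percentile of the array on the vertical axis and the groups on the horizontal axis. Lines join arrays of the same replicate number, black bars are group means, and open points are arrays on which the probe was not well above background. IL1B, IL1R1, IL1R2 and IL1RAP have their highest mean at day 2, IL1RN at day 2 is led by replicate 1 at 6.24, and IL18 has its lowest mean at day 2.

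IL1B had pre-irradiation levels of 1.72, 1.22, 1.83, 0.13 and 1.17 in replicates 1 to 5. At day 2 these were 2.51, 1.74, 3.10, 1.09 and 1.94. At day 5 they were 2.35, 1.48, 1.39, 0.94 and 2.22, and at day 30 they were 2.53, 1.74, 1.39, 1.62 and 1.31. Replicate 3 had the highest day 2 level and was then below its own pre-irradiation level at days 5 and 30, while the other 4 replicates stayed above theirs. The difference at 2 days was 0.86 (standard error 0.16, 95% confidence interval 0.49 to 1.23, adjusted p = 0.143 from limma). Other processing settings took it down to 0.41, below that interval. For days 5 and 30 the values were 0.46 (standard error 0.23) and 0.51 (standard error 0.27), and the intervals of both included 0. Leaving out 1 replicate moved them to between 0.31 and 0.69 at 5 days and to between 0.26 (without replicate 4) and 0.74 at 30 days. In order, the group means were 2.08 ± 0.77 at day 2, 1.72 ± 0.49 at day 30, 1.67 ± 0.59 at day 5 and 1.21 ± 0.68 before (SD, n = 5), and no neighbours in this order differed by more than their spread. Compared within slides, which mostly set arrays of different replicate numbers against each other, IL1B was higher at day 2 on 3 of 5 slides.

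IL1RN, the antagonist, was led by 1 replicate. Its pre-irradiation levels were 2.06, 1.55, 3.40, 1.27 and 2.37 in replicates 1 to 5, and its day 2 levels were 6.24, 2.53, 4.08, 2.29 and 2.48. The day 2 level of replicate 1 lay 4.18 above its own pre-irradiation level, and the other 4 pairs differed by much less. The mean difference was 1.39 at 2 days (standard error 0.53, adjusted p = 0.291 from limma), and 0.70 without replicate 1. Day 5 levels ran from 1.84 to 3.26 and day 30 levels from 2.24 to 3.51, with replicate 1 the highest in both. The difference was 0.28 at 5 days (standard error 0.28), with 0.05 without replicate 1 and 0.55 without replicate 3, and 0.66 at 30 days (standard error 0.28, adjusted p = 0.266 from limma). From day 2 to day 5 the level was lower in 5 of 5 pairs (1.6% of all probes were), with a mean difference of -1.12 (standard error 0.40, adjusted p = 0.972 from limma), and -0.65 without replicate 1. The second IL1RN probe, A_33_P3246829, showed the same array on top at day 2, with a level of 2.197 for replicate 1 against -0.15 for the next, and the levels of the 2 probes had a Pearson correlation of 0.921 over the 20 arrays. The differences of the second probe were 1.57, 0.54 and 0.28 at 2, 5 and 30 days (0.69, 0.29 and -0.16 without replicate 1). Its order of days 5 and 30 was the reverse of that of the brighter probe.

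IL1R1, the signalling receptor, was higher in every pair measured on each of the 3 days. Its levels before irradiation were -1.62, -2.33, -2.15, -2.31 and -0.92 in replicates 1 to 5. At day 2 they were -0.996, -2.12, 0.68, -0.67 and 0.24, and at day 30 they were -0.34, -1.75, -1.43, -0.73 and -0.11. At day 5 replicates 1, 2, 4 and 5 had levels of -0.54, -1.68, -1.18 and 0.31, and the spot of replicate 3 was marked as an outlier and left out. Replicate 2 was the lowest in every group and replicate 5 was the highest or second highest. At 2 days the difference was 1.29 (standard error 0.35, adjusted p = 0.202 from limma). It was 1.02 at 5 days (standard error 0.18, adjusted p = 0.279 from limma) and 0.99 at 30 days (standard error 0.20, adjusted p = 0.126 from limma). With the outlier spot kept the difference at 5 days was 1.39. Without replicate 3, whose pair had the largest difference, that at 2 days was 0.91. The group means were -0.57 at day 2, -0.77 at day 5, -0.87 at day 30 and -1.87 before, and the 3 means after irradiation differed from each other by less than their standard deviations of 1.10, 0.86 and 0.70.

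A second IL1R1 probe, A_24_P200023 (chr2:102795394-102795453), was well above background on 0 of 5 pre-irradiation arrays, 4 of 5 at day 2, 3 of 5 at day 5 and 2 of 5 at day 30. Each pre-irradiation array bounds the level by its dimmest probe still well above background, or by this probe's own signal where that was higher. Against the mean of these bounds its measured mean was 1.32-fold higher at day 2 and 1.4-fold higher at day 5. The means of both days include arrays not well above background, so these folds are not strict lower limits. Other processing settings took the measured log2 difference at 5 days from 0.95 down to 0.19. The probe was tested only because of its signal after irradiation, so these values do not add to those of the brighter probe. No fold is given at day 30, where the mean was below that bound. Over 19 arrays its levels and those of the brighter probe had a Pearson correlation of 0.688.

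IL1R2, the decoy receptor, had the largest mean difference of the 8 genes at 2 days, with IL1RN next to it. Its pre-irradiation levels were -1.96, -0.28, -0.39, -1.44 and 0.01, and its day 2 levels were 0.02, -0.16, 1.08, 0.51 and 1.54, in replicates 1 to 5. At day 5 the levels were -0.14, 0.33, 0.35, -0.18 and 0.78, a narrower range than in any other group. At day 30 they were -0.21, 0.44, -0.93, 0.04 and 0.78, with replicate 3 below its own level before irradiation and the other 4 above theirs. The difference was 1.41 at 2 days (standard error 0.28, adjusted p = 0.148 from limma). It was 1.04 at 5 days (standard error 0.21, adjusted p = 0.279 from limma) and 0.83 at 30 days (standard error 0.31, adjusted p = 0.235 from limma). The group means after irradiation followed in time, 0.60 ± 0.72 at day 2, 0.23 ± 0.40 at day 5 and 0.02 ± 0.65 at day 30, with -0.81 ± 0.85 before (SD, n = 5). Between neighbouring days after irradiation the differences were smaller than these spreads. On all 5 slides the day 2 array was above the pre-irradiation array, by 0.22 to 2.46.

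IL1RAP, the accessory chain shared by the IL-1 receptor complexes, was higher in 5 of 5 pairs on each day. Before irradiation its levels were 1.11, 0.84, 0.48, 0.14 and 1.12 in replicates 1 to 5. They were 2.12, 0.90, 2.93, 1.82 and 2.19 at day 2, then 1.39, 1.40, 0.74, 0.44 and 2.40 at day 5, and 1.80, 1.36, 0.90, 1.32 and 2.18 at day 30. At day 2 only replicate 2 lay inside the pre-irradiation range of 0.14 to 1.12. The difference was 1.26 at 2 days (standard error 0.31, adjusted p = 0.191 from limma), 0.54 at 5 days (standard error 0.19, adjusted p = 0.383, and 0.35 without replicate 5) and 0.78 at 30 days (standard error 0.19, adjusted p = 0.143). Other processing settings took the difference at 2 days down to 0.76. The group means were 1.99 ± 0.74 at day 2, 1.51 ± 0.49 at day 30, 1.27 ± 0.75 at day 5 and 0.74 ± 0.42 before (SD, n = 5), with no neighbours further apart than the larger of their standard deviations. A dimmer IL1RAP probe on another transcript (accession NM_134470, A_23_P336554) differed by 0.96 (standard error 0.32) at 2 days, 0.13 (standard error 0.37) at 5 days and 0.74 (standard error 0.33, and 0.40 without replicate 4) at 30 days. It was higher in 4, 3 and 3 of 5 pairs and lower in replicate 5 on each day. Other processing settings took its difference at 2 days down to 0.58. At 5 days the direction of that probe turned with the scaling of the arrays. The levels of the 2 IL1RAP probes had a Pearson correlation of 0.456 over 20 arrays.

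**Figure D2:**
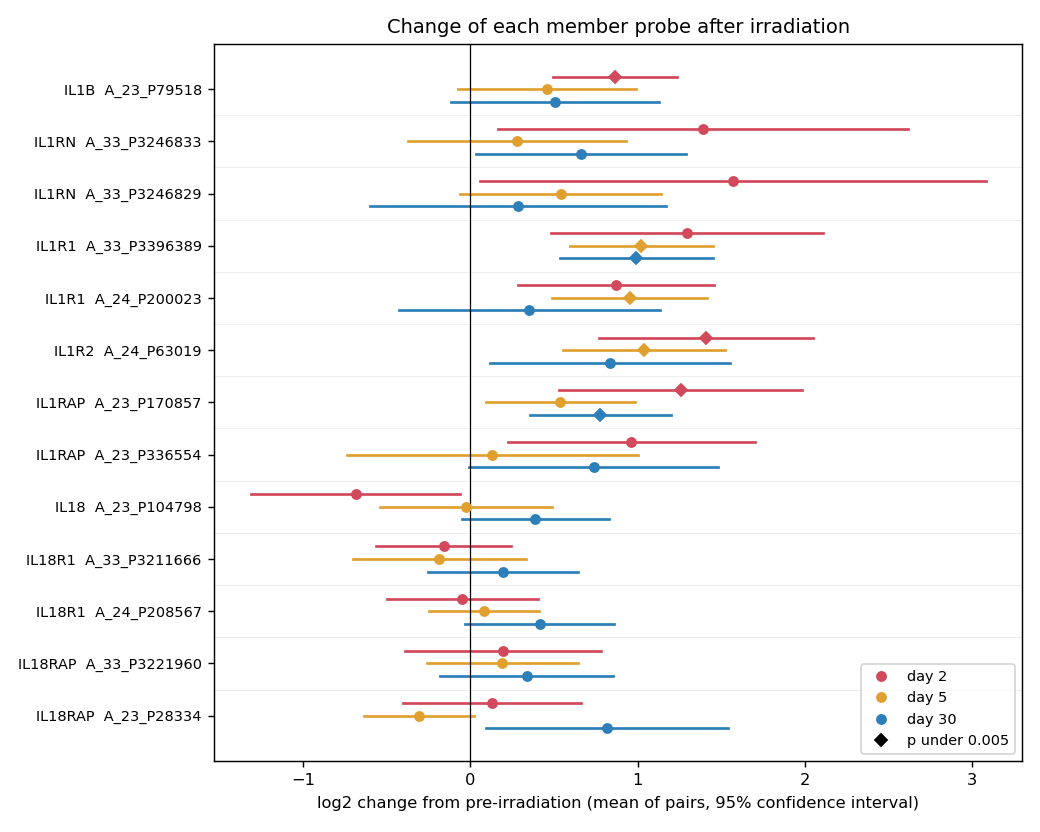
Log2 difference from pre-irradiation for the 13 tested probes at days 2, 5 and 30, as the mean of the pairs with its 95% confidence interval from limma, where diamonds mark an unadjusted p-value under 0.005. The measured means of the 8 probes of IL1B, IL1RN, IL1R1, IL1R2 and IL1RAP lie above 0 on all 3 days, although A_24_P200023 of IL1R1 was not well above background on any pre-irradiation array, so that its plotted differences are not measured changes. Those of IL18, IL18R1 and IL18RAP lie on both sides of 0 or near it before day 30.

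IL18, the ligand, was the one member lower in every pair at day 2. Its pre-irradiation levels were -2.56, -4.15, -3.55, -3.23 and -3.14, and its day 2 levels were -2.79, -4.51, -5.51, -3.88 and -3.37, in replicates 1 to 5. The signal is close to background, and the probe was well above it on 4 of 5 arrays before irradiation, 2 at day 2, 4 at day 5 and 5 at day 30. Differences that involve day 2 are those of the measured signals, and their size is uncertain. The difference at 2 days was -0.69 (standard error 0.27, adjusted p = 0.301 from limma), -0.37 without replicate 3, and turned to 0.34 with normexp background correction. At day 30 the levels were -1.59, -3.61, -3.48, -3.17 and -2.84, above pre-irradiation in 5 of 5 pairs by a mean of 0.39 (standard error 0.19, adjusted p = 0.336 from limma), or 0.24 without replicate 1. Day 30 exceeded day 2 in 5 of 5 pairs (7.03% of all probes did), by 1.08 (standard error 0.23, adjusted p = 0.298 from limma), and with normexp the difference was -0.05. It had an unadjusted p-value under 0.005 there, as did 1.45% of all probes (0.521% higher).

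IL18R1, the chain that binds IL-18, differed little from its level before irradiation on any day. The levels were -1.05, -3.05, -1.20, -1.61 and -1.50 in replicates 1 to 5 before irradiation and -1.28, -2.70, -1.18, -2.07 and -1.99 at day 2. At day 5 the levels ran from -2.82 to -0.99, and at day 30 from -2.57 to -0.54, with replicate 2 the lowest of its group at every time. The 95% confidence intervals of the difference were -0.56 to 0.24 at 2 days, -0.70 to 0.33 at 5 days and -0.26 to 0.65 at 30 days. Replicates differed from each other by more than the groups did, with group means between -1.87 and -1.49 and standard deviations between 0.63 and 0.82. The second tested probe, A_24_P208567, had differences of -0.05 (standard error 0.20), 0.08 (standard error 0.14) and 0.41 (standard error 0.20) on the 3 days, and was higher in 5 of 5 pairs at day 30 (adjusted p = 0.313 from limma), by 0.25 without replicate 1. The signs of both probes at 2 and 5 days turned under at least 1 alternative. Their levels had a Pearson correlation of 0.777 over 20 arrays.

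IL18RAP, the accessory chain of the IL-18 receptor, gave different pictures with its 2 probes, which lie close together on chromosome 2. The brighter probe, A_33_P3221960 (chr2:103068695-103068754), had group means of -0.25 ± 0.54 before, -0.06 ± 0.19 at day 2, -0.06 ± 0.47 at day 5 and 0.09 ± 0.43 at day 30 (SD, n = 5). Its differences from pre-irradiation were 0.19, 0.19 and 0.34, with intervals that included 0, and leaving out 1 replicate took them down to 0.00 (without replicate 4), 0.03 (without replicate 3) and 0.13 (without replicate 2). The dimmer probe, A_23_P28334 (chr2:103068885-103068944), was lower in 5 of 5 pairs at day 5, with a mean difference of -0.31 (standard error 0.14, adjusted p = 0.470 from limma). At day 30 it was higher in 5 of 5 pairs, by 0.82 (standard error 0.32, adjusted p = 0.242 from limma). Its day 30 levels were 2.77, -0.90, -0.11, 0.00 and 0.45 in replicates 1 to 5, and without replicate 1 the difference was 0.43. From day 5 to day 30 it was higher in 5 of 5 pairs (3.66% of all probes were), by 1.13 (standard error 0.36, adjusted p = 0.561 from limma), and by 0.68 without replicate 1. The 2 probes had a Pearson correlation of 0.252 over the 20 arrays, the lowest of the 5 genes with 2 tested probes.

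A stretch of the brighter IL18RAP probe is shown because its letters set it apart from the other members, with a repeat of TG over 12 bases in capitals. This was looked at after the values were seen.
IL18RAP, A_33_P3221960, bases 8 to 37 of 60, plus strand: tcacagctcTGTGTGTGTGTGttcaggctg
The letters TGTGTGTGTG are in 54 of the 34127 probes on the array (0.158%), and the reverse complement CACACACACA is in 20. Of the 50 probes whose levels over the 20 arrays were most like those of the brighter IL18RAP probe, 34 hold TGTGTGTGTG, among 46 holders in the 15320 probes compared. For each of the other 12 tested member probes that number was 0 of 50. The nearest named by a gene symbol was LOC101927285 (Pearson r = 0.941). What these letters contribute to the probe's signal was not tested. The nearest gene to the dimmer IL18RAP probe was OSM (r = 0.885), the gene of the inflammatory cytokine oncostatin M.

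**Figure D3:**
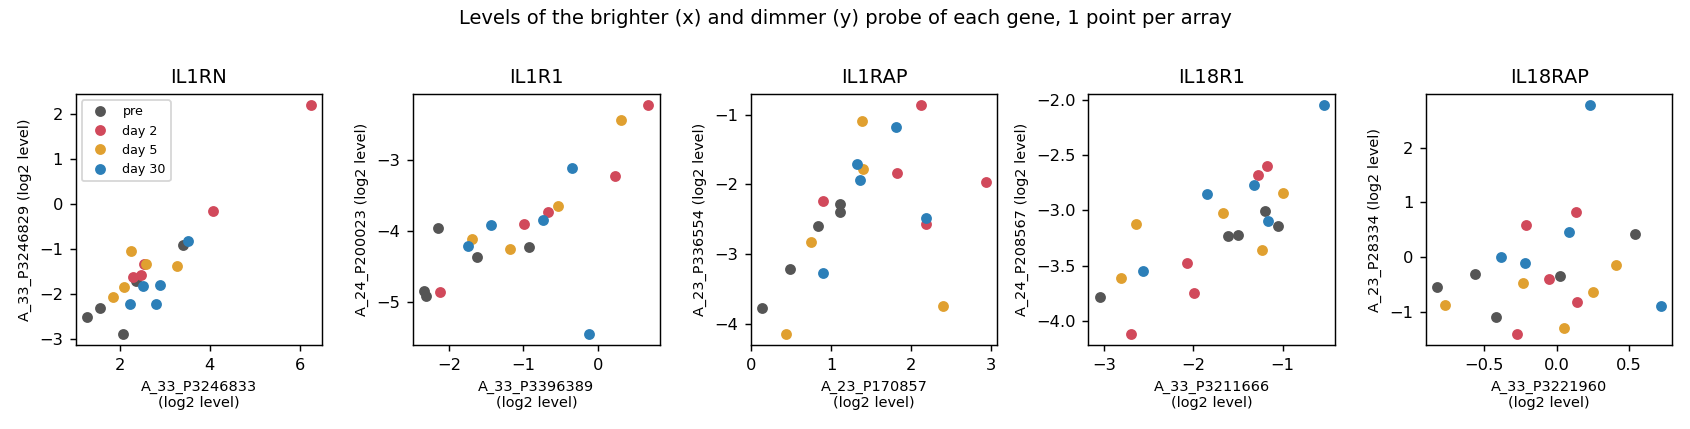
Levels of the brighter probe (horizontal axis) against the dimmer probe (vertical axis) of IL1RN, IL1R1, IL1RAP, IL18R1 and IL18RAP, in log2 units relative to the 75th percentile of the array, with 1 point per array and groups in colour. The points of IL1RN and IL18R1 follow a line (Pearson r of 0.921 and 0.777), and those of IL18RAP do not (r of 0.252).

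Over the 20 arrays, which come from repeated sampling of the same animals and are not independent, the levels of the IL-1 receptor genes were correlated. The Pearson correlation was 0.859 between IL1R1 and IL1RAP (19 arrays), 0.680 between IL1R1 and IL1R2, 0.687 between IL1R2 and IL1RAP, and 0.712 between IL1B and IL1RN. With the mean of each replicate number taken off, these values were 0.898, 0.844, 0.760 and 0.527. Levels were compared with 15322 probes, each detected above background on every array. Among these, the genes whose levels were most like those of IL1B were IFI30 (r = 0.950), LIMK2 (0.932) and LYN (0.930). For IL1RN they were RHBDF2 (r = 0.954), SRGAP2 (0.923) and IFI35 (0.909), the last of them an interferon-induced gene. IL1RAP was most like CD97 (r = 0.947), RSPH3 (0.937) and IFNGR1 (0.921), a chain of the interferon gamma receptor. IL1R1 was most like CYBRD1 (r = 0.913), CCDC125 (0.913) and VPS37C (0.908). IL1R2 was most like IGSF6 (r = 0.861), STK24 (0.824) and GMPR2 (0.801). IL18 was most like WDR73 (r = 0.816) and CCNA2 (0.813), and IL18R1 was most like UGGT1 (0.840), FAM83G (0.830) and CDV3 (0.822).

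The markers of neutrophils, blood cells that carry IL1R2 on their surface, had higher means after irradiation, as the IL-1 receptor genes did. Of 19 neutrophil markers listed, 17 were tested, and their median log2 differences were 0.96, 0.71 and 0.95 on the 3 days, where 16, 17 and 17 of them were higher. FCGR3B was not found under that name and MMP8 was well above background on 1 array. The brightest marker, CSF3R, the receptor of granulocyte colony-stimulating factor, had differences of 0.997, 0.62 and 0.68 on the 3 days, and was higher in 5, 5 and 4 of 5 pairs. LCN2, a granule protein, had the largest measured difference of the list at 2 and 30 days, 1.89 and 2.56, and was well above background on 3 of 5 arrays before irradiation and 3 of 5 at day 2, while S100A9 had the largest at 5 days, 1.61. The mean level of the list was between -0.42 and 1.93 before irradiation, 0.61 and 2.84 at day 2, 0.68 and 2.43 at day 5, and 1.04 and 3.68 at day 30. Its correlation with the level over the arrays was 0.795 for IL1RAP, 0.791 for IL1B, 0.778 for IL1R1, 0.539 for IL1RN and 0.508 for IL1R2, and 0.507, 0.295 and 0.187 for the brighter IL18RAP probe, IL18R1 and IL18. With the mean of each replicate number taken off, these values were 0.755, 0.763, 0.865, 0.382 and 0.739, and 0.335, 0.225 and -0.163.

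Pair by pair at day 2, the mean of the neutrophil list differed by 1.13, -0.25, 2.34, 1.38 and 0.13 in replicates 1 to 5, and CSF3R by 1.16, 0.38, 1.38, 1.38 and 0.68. In replicate 5, 10 of the 17 markers were higher and 7 lower, and the level of IL1R1 went from -0.92 to 0.24, that of IL1R2 from 0.01 to 1.54 and that of IL1RAP from 1.12 to 2.19. In replicate 2, 7 markers were higher and 10 lower, and the level of IL1R1 went from -2.33 to -2.12, that of IL1R2 from -0.28 to -0.16 and that of IL1RAP from 0.84 to 0.90. In the other 3 replicates at least 16 of the 17 markers were higher. The part of neutrophil numbers in the IL-1 results was not tested.

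Monocyte markers (11 tested of 14) had medians of 0.58, 0.41 and 0.53 at the 3 days, with CD14 higher by 0.58, 0.43 and 0.47. VCAN had the largest difference at 2 days (1.14), CD300E at 5 days (0.69) and CD163 at 30 days (0.97). The list had a correlation of 0.752 with IL1B and 0.603 with IL1RN (0.663 and 0.506 with replicate means taken off). With IL1RAP, IL1R1 and IL1R2 it was 0.631, 0.503 and 0.471 (0.673, 0.628 and 0.607 with replicate means taken off). LYZ and FCGR1A were not found under those names, and CD36 was well above background on 4 arrays. NK cell markers (14 tested of 15) had medians of -1.29, -0.70 and 0.01, and the brightest, GZMB, differed by -1.27, -0.71 and 0.34. KLRC1 had the largest measured NK difference at 2 and 5 days, -1.71 and -1.35, but was well above background on only 2 of 5 arrays at each of these days, and NCAM1 at 30 days, 0.79. IL18 and IL18R1 had correlations of 0.497 and 0.501 with that list (0.550 and 0.600 with replicate means taken off). Those of IL1RAP, IL1R1 and IL1R2 with the NK list were -0.494, -0.238 and -0.516. Platelet markers (10 tested of 11) had medians of 1.47, 0.46 and -0.01. At 2 days 10 of 10 platelet markers had an unadjusted p-value under 0.005 from limma, beside 2.55% of all probes (1.9% higher). Their brightest gene, PF4, differed by 1.47, 0.61 and -0.13, and the list had correlations of 0.417 with IL1RAP, 0.356 with IL1R2 and 0.288 with IL1RN. With replicate means taken off these were 0.518, 0.619 and 0.553, and that with IL18 was -0.548, where it was 0.002 without this step. By ranks (Spearman) the values for IL1RAP, IL1R2 and IL1RN were 0.379, 0.355 and -0.05. T cell markers (17 tested) had medians of -0.45, -0.33 and -0.44 and B cell markers (9 tested of 11) of -0.58, -0.49 and -0.45. IL1B, IL1R1, IL1R2 and IL1RAP had correlations of -0.589, -0.706, -0.573 and -0.681 with the T cell list. With the B cell list these were -0.679, -0.730, -0.398 and -0.650. So the same genes followed the neutrophil and monocyte lists upward and the lymphocyte lists downward. Erythroid markers (8 tested of 9) had medians of -0.15, 0.11 and -0.77, and basophil and eosinophil markers (9 tested of 11) of 0.13, -0.17 and -0.34. Of 8 reference genes 7 were tested, with medians of -0.12, 0.05 and -0.01. The part of these cell types in the members' differences was not tested.

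**Figure D4:**
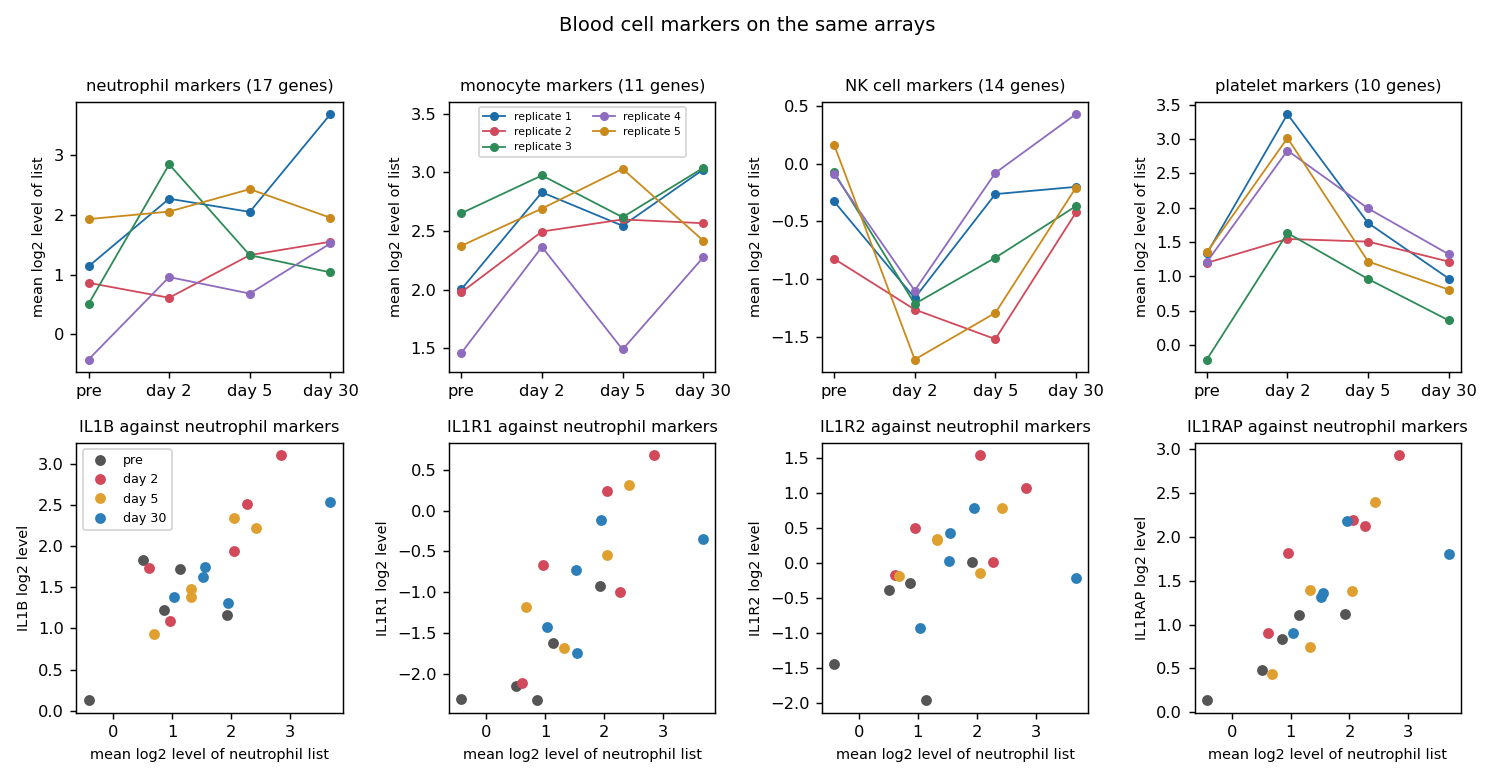
Top row, mean log2 level of the neutrophil, monocyte, NK cell and platelet marker lists in each group, with lines joining arrays of the same replicate number. Bottom row, levels of IL1B, IL1R1, IL1R2 and IL1RAP against the mean level of the neutrophil list, 1 point per array, where the correlations are 0.791, 0.778, 0.508 and 0.795.

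Most other listed genes of the IL-1 family were too dim on these human probes to be tested. Of 14 other ligands, receptors and binding proteins listed, 6 were tested. IL1A, the other IL-1 agonist, and IL33, IL36G, IL36RN, IL1RL2 and IL1RAPL2 were well above background on 0 arrays, and IL1RL1, the IL-33 receptor, on 4. None of the 6 had an unadjusted p-value under 0.005 on any day. IL18BP, the soluble inhibitor that binds IL-18, had differences of -0.25, -0.20 and -0.71 at 2, 5 and 30 days, and at 30 days was lower in 5 of 5 pairs (adjusted p = 0.205 from limma). IL37, an anti-inflammatory member, had differences of 0.50, 0.54 and 0.12 (standard errors 0.44, 0.33 and 0.27) and was higher in 2, 3 and 3 of 5 pairs. It was well above background on 3 of 5 pre-irradiation arrays, so the size of these differences is uncertain. IL36A was well above background on 8 of 20 arrays (2 before irradiation, 2 at day 2, 3 at day 5 and 1 at day 30), so no difference is given for it.

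Of 26 genes of receptor signalling, all tested, 18, 15 and 19 were higher on the 3 days, beside 44.9%, 54.7% and 47.4% of all probes, with medians of 0.15, 0.01 and 0.17. Without the FDR limit 2 of them passed at 2 days, 0 at 5 days and 1 at 30 days, all higher, beside 2.55%, 1.58% and 3.14% of all probes, so that the count at 30 days was near the share of all probes. MYD88, the adaptor of both receptor complexes, was 0.99 higher at 2 days (standard error 0.24, adjusted p = 0.190 from limma) and 0.68 and 0.61 higher at 5 and 30 days. IRAK3, a kinase-like protein that restrains this signal, was higher by 1.14 at 2 days (standard error 0.27, adjusted p = 0.188 from limma). At 5 and 30 days IRAK3 was higher by 0.50 and 1.12, the latter in 5 of 5 pairs (adjusted p = 0.127 from limma). MAP2K6, a kinase upstream of p38, was the lowest of the list, at -0.62, -0.60 and -0.72, with adjusted p-values of 0.254, 0.426 and 0.164 from limma. The kinase IRAK1 had differences of 0.11, -0.05 and -0.63 and was lower in 5 of 5 pairs at 30 days (adjusted p = 0.177 from limma). The ligase TRAF6 had 0.17, -0.02 and 0.47. These 2 genes were looked up after the values were seen, and IRAK4 was well above background on 5 arrays, so no value is given for it.

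For the processing and release of IL-1beta and IL-18, 17 of 19 genes were tested, and 14, 15 and 13 of them were higher at 2, 5 and 30 days, with medians of 0.42, 0.23 and 0.38. Without the FDR limit 1 gene passed at 2 days, 0 at 5 days and 1 at 30 days, beside 2.55%, 1.58% and 3.14% of all probes. CARD17, which resembles the caspase 1 prodomain, was 0.77 higher at 2 days (adjusted p = 0.191 from limma). CASP4, a caspase activated by intracellular LPS, was 1.20 higher at 30 days (standard error 0.29, adjusted p = 0.143 from limma). NLRC4, an inflammasome sensor, was close to background, with 1 array well above it before irradiation, 3 at day 2, 1 at day 5 and 3 at day 30. No difference is given for it. CARD16 was 0.74, 0.77 and 0.94 higher. CARD16 and CARD17 are close in sequence to CASP1, so signal may be shared between these probes.

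Of 23 genes that IL-1 or IL-18 is known to induce, 14 were tested, and 10, 10 and 12 were higher, with medians of 0.56, 0.19 and 0.51. Without the FDR limit 2 genes passed at each of the 3 days, beside 2.55%, 1.58% and 3.14% of all probes. CXCL2, a neutrophil-attracting chemokine, was 1.23 higher at 2 days (standard error 0.19, adjusted p = 0.131 from limma), 0.93 at 5 days and 0.16 at 30 days, and was well above background on 3 of 5 pre-irradiation arrays. TNFAIP6, a hyaluronan-binding protein, was 1.32 higher at day 2 (adjusted p = 0.166 from limma), and 0.66 and 0.87 at 5 and 30 days. BCL2A1, an antiapoptotic protein, was 1.13, 0.77 and 1.35 higher, with adjusted p-values of 0.289, 0.279 and 0.158 from limma. PTGS2, the inducible prostaglandin synthase, was higher in 5 of 5 pairs on each day, by 0.98, 0.79 and 1.01 (adjusted p = 0.147 from limma at 30 days). The classic targets IL6, CXCL8, CCL2 and IFNG were well above background on 4, 1, 1 and 2 of the 20 arrays and were not tested.

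**Figure D5:**
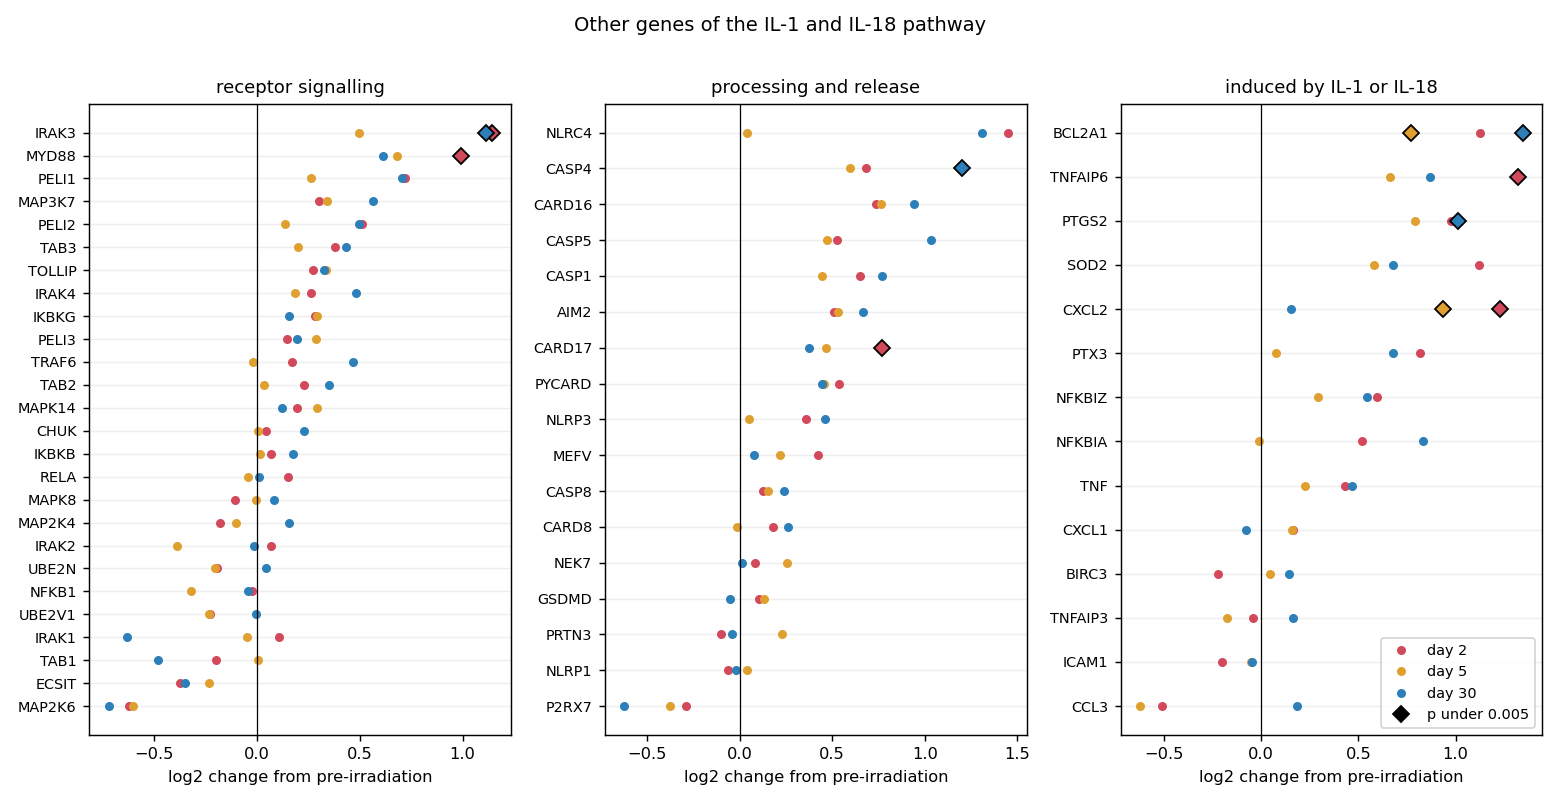
Log2 difference from pre-irradiation at days 2, 5 and 30 of the tested genes of receptor signalling (26 genes), of processing and release of IL-1beta and IL-18 (17 genes) and of genes induced by IL-1 or IL-18 (14 genes). Diamonds mark an unadjusted p-value under 0.005, and dim genes such as NLRC4 are plotted at their measured values. The genes so marked are IRAK3, MYD88, CASP4, CARD17, BCL2A1, TNFAIP6, PTGS2 and CXCL2, all above 0.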

How the data were processed

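Feature Extraction output of 20 one-color Agilent Whole Human Genome 4x44K v2 arrays was used (version 12.0.2.2 per the file headers, 10.7 per the labels' processing notes). Per the file headers, the authors' processed signal intensity has its background removed, and arrays had not been brought to a common scale. A table of log2 values deposited by the authors served as an alternative. Control spots and spots marked as outliers were dropped, log2 signals of repeated spots were averaged, and the array's 75th percentile was taken off. Every comparison was fitted in limma 3.58.1 (R 4.3.3) on the 2 groups concerned, blocked by replicate number, over 19961 of 34127 probes (well above background on at least 5 arrays, with at least 4 pairs). On each array 50.9% (pre-irradiation replicate 1) to 67.3% (day 5 replicate 3) of spots passed that mark. Both stood apart, with the remaining arrays between 54.7% and 58.8%. Precision is limited by having 5 arrays a group.

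Pairing was taken from the methods. Arrays of 1 number on different slides had a median correlation of 0.324 over 27 pairs of arrays (range 0.023 to 0.485). For different numbers on different slides it was -0.081 (range -0.507 to 0.425). The day 2 array of replicate 3 followed its number weakly. It had 0.173 with the pre-irradiation array, 0.023 with that of day 5 and -0.162 with that of day 30, which shared its slide. The fit was tested on simulated data for day 2 against pre-irradiation. Of 50 probes given a log2 change of 1 it called 24, of 50 given 1.5 it called 41, and 22 unchanged probes were called. Changes of about the size seen in the members were thus often missed in the simulation. The members and gene lists were chosen with earlier results of these data known. Named besides the members are pathway genes with a p-value under 0.005 or among the 3 largest mean differences of a list, each marker list's brightest gene and largest difference per day, and the 3 genes most like each member. Alternatives were other scaling, background correction, filters, blocks, tests, samples in the fit and thresholds, and each replicate left out. The slide in place of the replicate number and the percentile over probes were added after seeing the data. Python 3.11.15, pandas 2.3.3 and matplotlib 3.10.9 were used for tables and figures.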

Additional observations from a re-analysis of the deposited data

Results flagged for a closer look

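In 2 of 52 groups of member probe levels 1 array stood apart from the other 4 by Dixon's criterion, which chance meets in about 1 of 20 groups. Both are IL18R1 before irradiation in replicate 2. The brighter probe had a level of -3.05 there, with the next at -1.61, and the second probe had -3.78, with the next at -3.23.

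IL18 was lower in 5 of 5 pairs at day 2 and higher in 5 of 5 pairs at day 30, and the difference between the 2 days was 1.08 (adjusted p = 0.298 from limma). With normexp the difference was 0.34 at day 2 and -0.05 between the 2 days, and the probe was well above background on 2 of 5 arrays at day 2. The dimmer IL18RAP probe was lower in 5 of 5 pairs at day 5 and higher in 5 of 5 pairs at day 30, with a difference between the days of 1.13 (adjusted p = 0.561 from limma), or 0.68 without replicate 1. Both sets of pairs share the pre-irradiation arrays.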

How the results depend on the processing

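Called members, 0 of 13 probes in each of the 6 comparisons, depended on the setting at 2 and 30 days. At 2 days 4 probes were called on the deposited log2 values (IL1B, IL1R1, IL1R2 and IL1RAP, beside 5.78% of all probes tested there), 3 when all 20 arrays entered a single fit (IL1R1, IL1R2 and IL1RAP, beside 1.72%), 2 when just the probes detected on all 20 arrays were tested (IL1B and IL1R2, beside 1.24%), 2 with an intensity trend (the same genes, beside 1.0%), and 1 with the slide as a random block (IL1R2, beside 0.902%). Leaving out 1 replicate gave 0 to 4, with the 4 genes named first called without replicate 2, beside 2.95%. At 30 days 2 were called with normexp, with the probes detected on all 20 arrays and with the trend (IL1R1 and IL1RAP each time, beside 4.77%, 4.53% and 2.26%), and 1 on the deposited values (IL1R1, beside 5.91%). At 5 days and between days the count stayed at 0. Over the whole array the counts ran from 0 to 588 at 2 days (12 as reported, 588 without replicate 2 and 343 with all arrays in a single fit), from 0 to 9 at 5 days (0 as reported), from 0 to 952 at 30 days (0 as reported, 952 with normexp) and from 0 to 164 between days 2 and 30 (10 as reported).

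Pairing mattered for the genes that passed p under 0.005 without the FDR limit. Without the replicate block, 1 of 8 genes passed at 2 days (3 as reported), 0 at 5 days (2 as reported) and 0 at 30 days (2 as reported), and 0 members were called in any comparison. A paired test of each probe by itself gave 1, 1 and 0 genes. With the slide in place of the replicate number 0 passed at 5 and at 30 days, with the slide as a random block 1 passed at 5 days and 0 at 30 days, with all arrays in a single fit 0 passed at 30 days, and on the deposited values 1 passed at 30 days. With 1 replicate left out, 1 to 4 genes passed at 2 days (1 without replicate 1 or 5, which was IL1B), 1 to 2 at 5 days (1 without replicate 4) and 1 to 4 at 30 days (4 without replicate 3, and IL1R1 alone without any of the others).

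In the comparisons with pre-irradiation at least 1 alternative changed the sign in 9 of 39 probe and day combinations, and the probes of IL1B, IL1R1 and IL1R2 and the brighter probes of IL1RN and IL1RAP had none. Their size did change. Settings other than leaving out a replicate took IL1B from 0.86 to 0.41, IL1RN from 1.39 to 0.84 and IL1RAP from 1.26 to 0.76 at 2 days. They took IL1R2 from 1.04 to 0.66 and the brighter IL1R1 probe from 1.02 to 0.66 at 5 days, and the latter from 0.99 to 0.65 at 30 days. With normexp, IL18 was 0.34 at 2 days, 0.03 at 5 days and -0.05 between days 2 and 30, and the IL18R1 probes were 0.08 (A_33_P3211666) and 0.40 (A_24_P208567) at 2 days. Quantile normalization and median scaling turned A_24_P208567 at 5 days to -0.12 and -0.05 and the dimmer IL1RAP probe to -0.08 and -0.01. Leaving out 1 replicate gave A_24_P208567 up to 0.07 at 2 days from -0.18, the dimmer IL18RAP probe -0.12 to 0.24 at 2 days, IL18 -0.18 to 0.13 at 5 days, A_33_P3211666 -0.29 to 0.05 at 5 days, the dimmer IL1RAP probe -0.16 to 0.53 at 5 days and the second IL1RN probe -0.16 to 0.58 at 30 days. The cause of these changes was not tested. The slide as a block beside the replicate number could not be fitted with 2 groups and was run as a random block over all arrays. The deposited values and the stricter filter leave out IL18 and test fewer probes. The median of all probes moved by over 0.1 with normexp (to 0.164 at 2 days and 0.104 at 30 days), with the deposited values (0.115 at both) and with median scaling (-0.107 at 5 days). Between days it did so from day 2 to day 5 (0.054 as reported, -0.124 with normexp, -0.117 with median scaling and -0.074 with the deposited values), from day 2 to day 30 with normexp (0.002 to -0.100) and from day 5 to day 30 (-0.052 as reported, 0.157 with median scaling and 0.066 with normexp).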
